A study of Mus musculus with 6 samples.

Results

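The synaptonemal complex and HORMA genes examined here are *Sycp1*, *Sycp2*, *Sycp3*, *Syce1*, *Syce2*, *Syce3*, *Tex12*, *Hormad1* and *Hormad2*. They were taken by gene name from a table of 54532 mouse genes, and all 9 were found and passed the filter on low values that left 15451 genes for testing. The table holds RNA-seq of total RNA from STRA8-positive (STRA8+) germ cells of mouse testis, with 3 control libraries and 3 *Srsf1* conditional knockout (cKO) libraries. The control genotype is given as Cre and the cKO genotype as *Srsf1* knockout, and a conditional knockout is named as the treatment for both groups. The Cre driver, the age and strain of the mice, the way STRA8+ cells were obtained and any pooling of animals are not given in the sources used here. The labels do not say that the libraries came from separate animals, so the p-values measure only the spread between these libraries, which may be technical. The question set by the design is whether mRNA of these genes differed between STRA8+ cells with and without *Srsf1*, which encodes a splicing factor.

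The synaptonemal complex is the protein ladder that holds homologous chromosomes together along their length in meiotic prophase. Each chromosome first forms an axis, which carries the lateral element proteins SYCP2 and SYCP3. SYCP1 dimers span the gap between axes as transverse filaments, and SYCE1, SYCE2, SYCE3 and TEX12 build the central element in the middle. HORMAD1 and HORMAD2 coat axes that have not yet synapsed, take part in their surveillance, and are removed by the ATPase TRIP13 once synapsis is complete. HORMAD1 also promotes double-strand break formation. Transcription of these genes begins as germ cells enter meiosis, and STRA8 is a transcriptional regulator of that entry.

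The promoters are shown first, as the sequence context of the genes. Their part in the measured levels was not tested. The sequence CACGTG is the E-box read by dimers that contain MAX, and GCGGGAA is an E2F-type sequence. MAX and E2F6 are subunits of a repressive complex that keeps many meiotic genes silent outside meiosis. RefSeq promoters of GRCm38.p6, from 250 bases before to 50 bases after a start site, were matched for all 9 genes, and the letters were searched on both strands. The motifs were chosen after these promoters had been read, so an excess over the share of all genes is built in and is not a result. CACGTG occurred in the promoters of 5 of the 9 genes, against 8.09% of 27025 genes with a promoter in the RefSeq table. The 5 genes were *Sycp1*, *Sycp3*, *Syce2*, *Tex12* and *Hormad1*. One 30-base window around each match is given on the strand of the gene, with the motif in capitals.
*Sycp1*, chr3:102936177-102936206, minus strand: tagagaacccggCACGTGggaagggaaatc
*Sycp3*, chr10:88459511-88459540, plus strand: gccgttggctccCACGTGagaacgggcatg
*Sycp3*, chr10:88459532-88459561, plus strand: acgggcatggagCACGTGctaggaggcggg
*Syce2*, chr8:84872158-84872187, plus strand: cgtttcattcagCACGTGctcggggcgggg
*Tex12*, chr9:50561344-50561373, minus strand: ccgcgagactgtCACGTGgctcgcgcgctg
*Hormad1*, chr3:95559608-95559637, plus strand: caaagggtgcgcCACGTGccagtgacagtt
*Hormad1*, chr3:95559645-95559674, plus strand: atgcgcactgcgCACGTGctgaccggagcg
The first base of the motif lay 94 bases before the RefSeq start site of *Sycp1*, 64 and 43 before that of *Sycp3* and 93 before that of *Tex12*. It lay 88 bases before the downstream of the RefSeq start sites of *Syce2*, and 57 and 20 bases before the upstream of those of *Hormad1*.

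GCGGGAA occurred in 4 of the 9 genes, against 5.29% of all genes with a promoter. All 4, *Sycp3*, *Syce2*, *Tex12* and *Hormad1*, also held CACGTG.
*Sycp3*, chr10:88459429-88459458, plus strand: aggaaggaacaGCGGGAAagtgctgcttct
*Syce2*, chr8:84872213-84872242, plus strand: agggcgctgagGCGGGAAaagacggaatgg
*Tex12*, chr9:50561395-50561424, minus strand: ggaggaaaaagGCGGGAAgtaaagggaagt
*Hormad1*, chr3:95559571-95559600, plus strand: cgcagcttttgGCGGGAAtagtggtctggc
The NRF1-type sequence GCGCATGC was found in *Hormad1* and *Syce1*, 2 of the 9 genes, against 3.05% of all genes. None of these 3 sequences was found in the promoter windows of *Sycp2*, *Syce3* or *Hormad2*. A match is a description of the letters and not of a bound site. Of the 5 genes with CACGTG, *Syce2* was called lower in the cKO and the other 4 were not called, as described below.

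The libraries held between 14447887 and 17310353 fragments counted on genes. *Srsf1* was 84.7, 45.2 and 51.9 FPKM in control replicates 1, 2 and 3 and 5.08, 4.94 and 5.17 FPKM in the cKO replicates, where FPKM is the number of fragments per kilobase of a gene, scaled to library size. This is a log2 fold change of -3.29 with an SE of 0.22 (limma, adjusted p = 5.6e-05), so the targeted gene follows the labels. *Stra8*, which defines the labelled cells, was detected at 244 ± 20.3 FPKM (SD, n = 3) in control and 272 ± 36.4 FPKM in cKO libraries. The germ cell genes *Ddx4* and *Dazl* were also high, at 160 ± 8.37 and 392 ± 25.7 FPKM in the controls and 135 ± 8.65 and 529 ± 50.7 FPKM in cKO libraries. *Ddx4* was lower and *Dazl* higher in the cKO (limma, adjusted p = 0.048 and 0.016), but the call of *Ddx4* held under only 5 of 16 alternatives. That of *Dazl* was lost without cKO replicate 3 and with the replicate numbers as a block (limma, adjusted p = 0.052 and 0.065). Among the marker lists, those of later stages had the largest median differences between the genotypes, with log2 fold changes of -3.35 for pachytene spermatocytes and -6.52 for spermatids. Of 10 pachytene spermatocyte markers 9 were lower in the cKO, with a summed level of 1089 to 1281 FPKM in the controls and 234 to 263 FPKM in cKO libraries. All 10 spermatid markers were lower, with 2583 to 8622 FPKM in the controls and 8.61 to 10.4 FPKM in cKO libraries, so transcripts of postmeiotic genes were present in the control libraries labelled STRA8+. In these bulk libraries, fewer cells of a type and less RNA per cell cannot be told apart.

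Of the 9 genes only *Syce2* passed the test between genotypes, lower in the cKO, a call that held under 9 of 16 alternatives, and none was called higher (limma, adjusted p of at most 0.05 over all genes tested). Among all 15451 genes, 22.2% were called lower and 11.8% higher, so 1 of 9 is below the background. The median log2 fold change of the 9 genes was -0.03, against -0.01 for all genes. Estimates ran from -0.34 to 0.17. The groups of libraries did not overlap for *Syce2* alone, 1 of 9 genes against 50.4% of all genes. For a single gene in 3 plus 3 libraries, the smallest exact permutation p is 0.1.

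**Figure D1:**
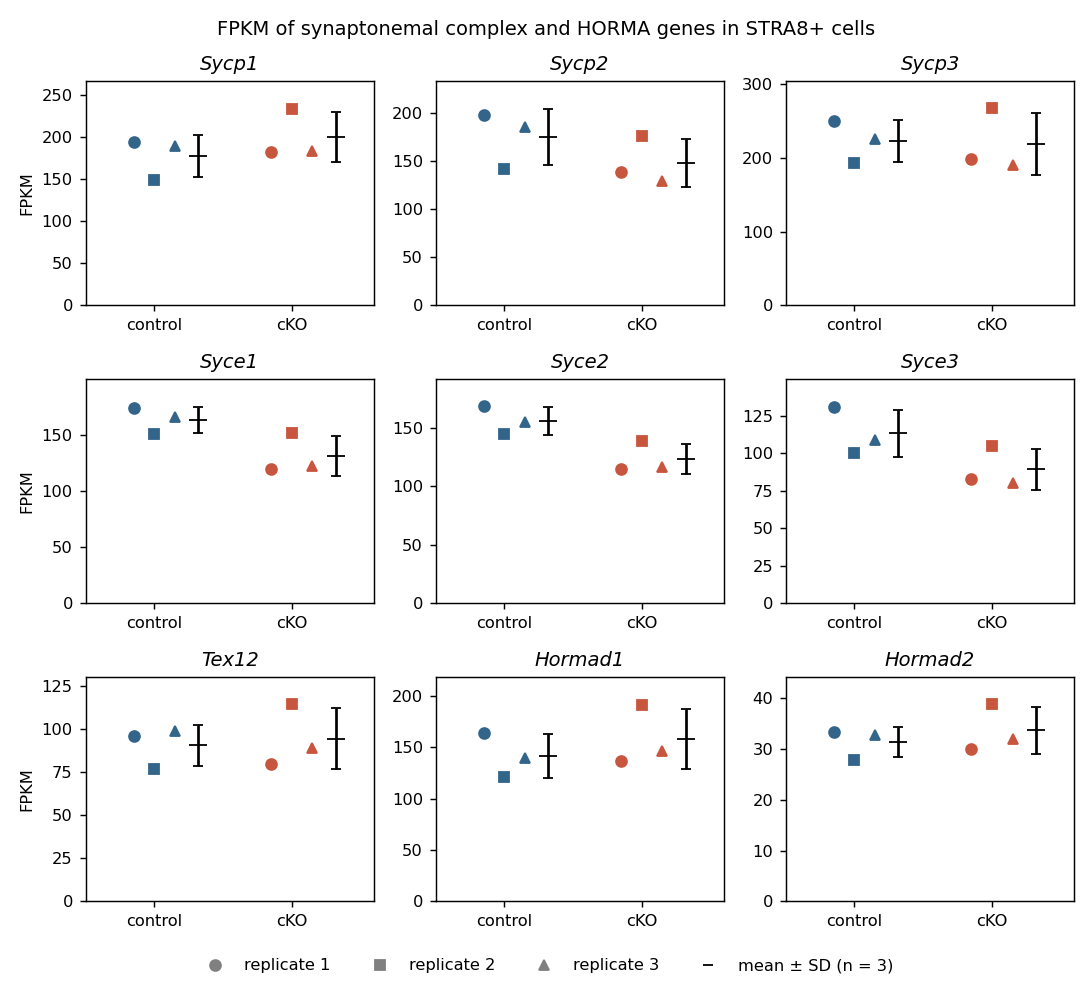
FPKM (y axis, from 0) of each of the 9 genes in the 3 control and 3 cKO libraries (x axis); symbols mark the replicate number and the bar beside them the mean ± SD (n = 3). In all 9 panels replicate 2 is the lowest of the control libraries and the highest of the cKO libraries, and the groups are separate in the *Syce2* panel only.

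Among the lateral element genes, *Sycp3* encodes the rod-shaped core of the meiotic axis and *Sycp2* its partner. *Sycp3* (chromosome 10, 88459569 to 88473236, plus strand of GRCm38, 9 exons, 254 residues) was the most abundant of the 9 genes per length. It was measured at 249, 192 and 225 FPKM in control replicates 1, 2 and 3 and at 198, 267 and 191 FPKM in the cKO replicates. The highest library was a cKO library and the groups overlapped. The log2 fold change was -0.03 with a 95% confidence interval from -0.40 to 0.33 (limma, adjusted p = 0.88). Of the exon bases of *Sycp3*, 52.2% are shared with *Chpt1* on the opposite strand, which was counted at 5.50 to 6.31 FPKM, and whether the counting used strand is not given in the sources used here. *Sycp2* (chromosome 2, 178345293 to 178407685, minus strand, 44 exons, 1500 residues) was measured at 197, 141 and 185 FPKM in the controls and at 138, 176 and 129 FPKM in cKO libraries. Control replicate 2 lay among the cKO libraries and cKO replicate 2 among the controls. The log2 fold change was -0.24, with a 95% confidence interval from -0.63 to 0.15 (limma, adjusted p = 0.30).

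The transverse filament gene *Sycp1* (chromosome 3, 102818499 to 102936100, minus strand, 33 exons, 993 residues) was measured at 194, 149 and 189 FPKM in the controls and at 182, 234 and 183 FPKM in cKO libraries. cKO replicates 1 and 3 lay between the lowest and highest control, and cKO replicate 2 lay above all controls. It had the highest estimate of the 9 genes, a log2 fold change of 0.17 with a 95% confidence interval from -0.16 to 0.51 (limma, adjusted p = 0.39).

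The central element genes included the gene that was called. *Syce2* (chromosome 8, 84872111 to 84888221, plus strand, 5 exons, 177 residues) encodes the protein that assembles with TEX12 into the long fibres of the central element. It was measured at 168, 144 and 155 FPKM in the controls and at 115, 138 and 116 FPKM in cKO libraries. Every cKO library lay below every control library, and the cKO mean was 79.1% of the control mean. The log2 fold change was -0.34 with a 95% confidence interval from -0.57 to -0.10 (limma, adjusted p = 0.038). This call was lost under 7 of 16 alternatives, with adjusted p from 0.063 to 0.127 in limma. They were no filter on low values, no intensity trend, a replicate block and leaving out control replicate 1 or 3 or cKO replicate 1 or 3. *Syce1* (chromosome 7, 140777229 to 140787852, minus strand, 13 exons, 329 residues) encodes a protein that binds SYCP1 and SYCE3. It was measured at 174, 151 and 166 FPKM in the controls and at 120, 152 and 122 FPKM in cKO libraries. The overlap of the groups came from replicate 2 alone, 151 FPKM in control and 152 FPKM in cKO. *Syce1* had a log2 fold change of -0.32 with a 95% confidence interval from -0.58 to -0.06, which did not pass the threshold after adjustment (limma, adjusted p = 0.062).

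*Syce3* (chromosome 15, 89390174 to 89410503, minus strand, 3 exons, 88 residues) encodes the smallest of these proteins, which links SYCP1 to the central element. It was measured at 131, 100 and 109 FPKM in the controls and at 82.6, 105 and 80.3 FPKM in cKO libraries. Again the replicate 2 libraries alone overlapped. Its log2 fold change of -0.34 was as large as that of *Syce2*, with a wider 95% confidence interval from -0.67 to -0.01 (limma, adjusted p = 0.10). *Tex12* (chromosome 9, 50556819 to 50561325, minus strand, 5 exons, 123 residues), the partner of *Syce2* at the protein level, was measured at 96.3, 77.1 and 99.1 FPKM in the controls and at 80.0, 115 and 89.2 FPKM in cKO libraries. The groups overlapped, with cKO replicate 2 above all controls and control replicate 2 below all cKO libraries. *Tex12* had a log2 fold change of 0.05 with a 95% confidence interval from -0.32 to 0.42 (limma, adjusted p = 0.82).

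The HORMA genes encode related axis proteins of unequal abundance at the mRNA level. *Hormad1* (chromosome 3, 95559677 to 95587671, plus strand, 15 exons, 392 residues) was measured at 164, 121 and 140 FPKM in the controls and at 137, 192 and 147 FPKM in cKO libraries. cKO replicate 2 lay above all controls and the other cKO libraries within them. The log2 fold change was 0.16 with a 95% confidence interval from -0.22 to 0.53 (limma, adjusted p = 0.48). *Hormad2* (chromosome 11, 4345814 to 4441105, minus strand, 11 exons, 306 residues) was the least abundant of the 9 genes, at 33.3, 27.9 and 32.7 FPKM in the controls and at 29.96, 38.9 and 32.03 FPKM in cKO libraries. The log2 fold change was 0.10 with a 95% confidence interval from -0.18 to 0.37 (limma, adjusted p = 0.56). Behind these values lay between 675 fragments, for *Syce3* in cKO replicate 3, and 19373 fragments, for *Sycp2* in control replicate 1.

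**Figure D2:**
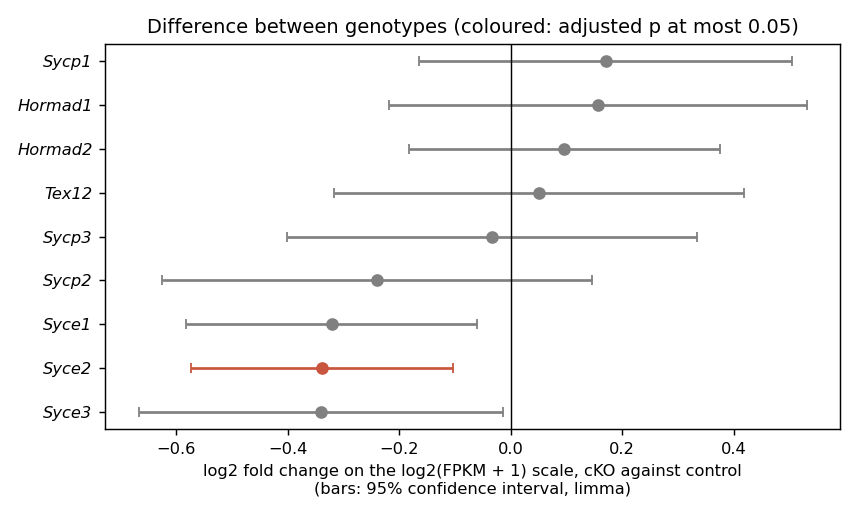
Log2 fold change of each gene (cKO minus control, log2(FPKM + 1) scale, x axis), with its 95% confidence interval from limma; the coloured point marks the gene past the threshold. *Sycp1*, *Hormad1*, *Hormad2* and *Tex12* lie above 0 and the other 5 genes below, and of the 3 intervals that leave out 0 only that of *Syce2* goes with an adjusted p under 0.05.

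In control libraries the order of the levels per length ran from *Sycp3* through *Sycp1*, *Sycp2*, *Syce1*, *Syce2*, *Hormad1*, *Syce3* and *Tex12* to *Hormad2*. Within a control library, *Sycp1* and *Sycp2* could not be ordered, with a log2 ratio of 0.03 ± 0.048 (SD, n = 3) whose sign changed between libraries. The same held for *Sycp2* and *Syce1*, with a log2 ratio of 0.08 ± 0.15. All other neighbours kept their order in all 3 control libraries. In cKO libraries *Hormad1* moved from place 6 to place 3 and *Tex12* passed *Syce3*. *Sycp2* and *Hormad1* could not be ordered there, with a log2 ratio of -0.10 ± 0.10, nor could *Syce3* and *Tex12*, with -0.08 ± 0.11.

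A second pattern ran through all 9 genes and did not follow genotype. Replicate 2 was the lowest control library and the highest cKO library for each of them, against 21.4% of all genes tested. The pattern was defined after the values had been seen. The 9 genes also varied together over the same libraries, so they are not 9 separate observations and the count is a description. Control replicate 2 lay below the mean of the other controls by a median log2 difference of -0.30 over the 9 genes, and cKO replicate 2 above the other cKO libraries by 0.36. For all genes tested these medians were -0.0032 and 0.0065. *Stra8*, *Ddx4* and *Dazl* showed the same pattern, as did 23 of the 31 other synapsis and axis genes tested. The summed FPKM of the 9 genes was 1407, 1104 and 1300 in control and 1083, 1417 and 1090 in cKO libraries, so the genotypes overlapped. In the same libraries spermatid markers summed to 8622 FPKM in control replicate 2, compared with 2631 and 2583 FPKM in the other control libraries. Somatic markers of Sertoli, Leydig, peritubular, blood and endothelial cells, 29 in all, summed to 88.1, 88.2 and 100 FPKM in control replicates 1, 2 and 3 and to 145, 69.2 and 91.2 FPKM in the cKO replicates. Most of this sum came from the Sertoli cell list, at 72.7, 58.2 and 87.3 FPKM in control and 121, 48.9 and 66.7 FPKM in cKO. The Leydig list summed to 5.45, 13.98 and 2.95 FPKM in control and 10.2, 6.34 and 10.7 FPKM in cKO. The peritubular list summed to 3.69, 6.44 and 4.13 FPKM in control and 8.16, 7.04 and 7.35 FPKM in cKO. These sums ran opposite to the 9 genes in both second replicates, but they were low and led by few genes. In control replicate 2, *Insl3* alone reached 9.74 FPKM and *Acta2* 3.19 FPKM. In cKO libraries *Star*, at 4.87, 3.62 and 3.49 FPKM, and *Acta2*, at 2.75, 2.76 and 2.84 FPKM, were not lowest in replicate 2. *Insl3*, at 3.27, 2.41 and 5.81 FPKM, was lowest there. The macrophage and blood list, at 5.27, 8.45 and 4.94 FPKM in control and 5.16, 6.46 and 5.32 FPKM in cKO, was highest in replicate 2 of each genotype. The 3 endothelial markers summed to at most 1.19 FPKM in any library. Among germ cell lists, markers of meiotic initiation and early prophase ran with the 9 genes, at 621, 436 and 625 FPKM in control and 638, 728 and 567 FPKM in cKO. The sums of both lists of spermatogonia ran opposite to them, but single members differed. In the differentiating list *Uchl1*, at 228, 340 and 234 FPKM in control and 395, 230 and 369 FPKM in cKO, ran as the sum. *Stra8*, at 262, 222 and 250 FPKM in control and 242, 313 and 262 FPKM in cKO, ran with the 9 genes, as did *Rhox13*. *Zbtb16* ran as the undifferentiated sum, and *Id4* was lowest in replicate 2 of each genotype. *Uchl1*, *Rhox13* and *Insl3* are named here after their values had been seen. Differentiating markers summed to 902, 994 and 878 FPKM in control and 1070, 969.5 and 1085 FPKM in cKO, and undifferentiated markers to 35.8, 42.6 and 38.5 FPKM and 44.3, 38.1 and 43.1 FPKM. Their part in the pattern was not tested.

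**Figure D3:**
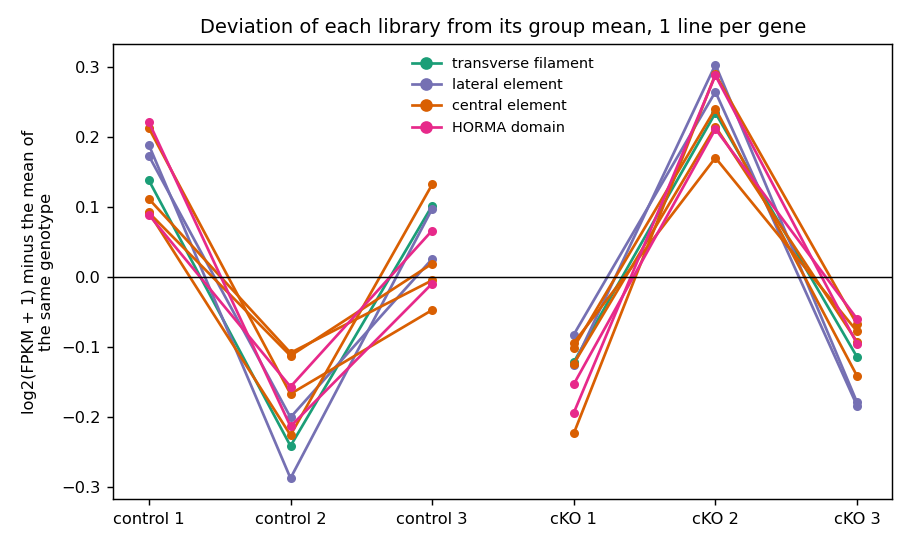
Log2(FPKM + 1) of each gene minus the mean of its own genotype (y axis) in each library (x axis), 1 line per gene and group, coloured by structural role. All 9 lines dip at control replicate 2 and peak at cKO replicate 2.

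The number of genes called changed with the libraries kept. Without cKO replicate 2, *Syce1*, *Syce2* and *Syce3* were lower in the cKO in limma, 3 of 9 genes against 19.6% of all genes. With both second replicates left out, 5 of 9 genes were lower against 22.8% of all genes. These alternatives remove the highest cKO library of all 9 genes, and the latter also their lowest control library, so every estimate becomes lower by construction and the excess over the background is not a result. The latter was chosen after the values had been seen and is given as a description. The 5 genes were *Sycp2* with a log2 fold change of -0.52, *Sycp3* with -0.29, *Syce1* with -0.49, *Syce2* with -0.48 and *Syce3* with -0.54. *Sycp1*, *Tex12*, *Hormad1* and *Hormad2* were not called there, with log2 fold changes of -0.07, -0.21, -0.09 and -0.09. Without any 1 of control replicates 1 and 3 or cKO replicates 1 and 3, in contrast, none of the 9 genes was called, and *Syce2* had log2 fold changes of -0.34 to -0.28 (limma, adjusted p = 0.094 to 0.127).

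The composition of the set within each library does not depend on scaling between libraries, and is described here without a test. For the background, the FPKM of a gene divided by the summed FPKM of the 9 genes did not overlap between the genotypes for 39.5% of all genes tested. The central element genes made up 41.3% ± 1.30 (SD, n = 3) of the summed FPKM of the 9 genes in control libraries, with a range from 40.5% to 42.8%. They made up 36.7% ± 0.75 in cKO libraries, from 36.0% to 37.5%, so every cKO library lay below every control. The transverse filament gene *Sycp1* made up 13.8%, 13.5% and 14.6% in control and 16.8%, 16.5% and 16.8% in cKO libraries. The HORMA genes made up 13.6% ± 0.39 in control and 16.0% ± 0.54 in cKO libraries. For both roles every cKO library lay above every control. The lateral element made up 31.2% ± 0.82 and 30.5% ± 1.07, and the groups overlapped. Shares of 1 total are bound to each other, so a lower share of 1 role raises the rest, and 3 libraries against 3 allow no exact p below 0.1.

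**Figure D4:**
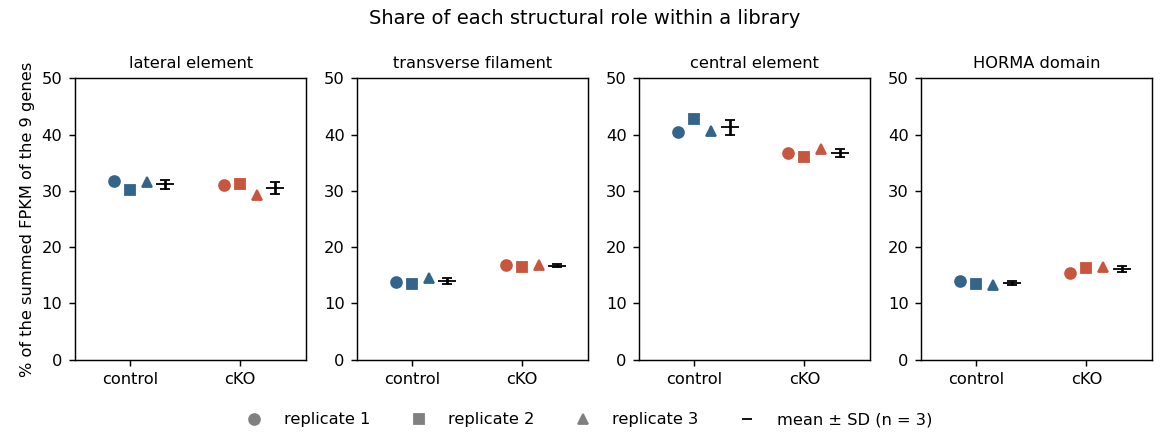
Share of each structural role in the summed FPKM of the 9 genes (y axis, percent, from 0) in the 3 control and 3 cKO libraries, with symbols for the replicate number and mean ± SD (n = 3). The cKO libraries lie below the controls for the central element, above them for the transverse filament and the HORMA genes, and overlap them for the lateral element.

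By gene, the shares of *Syce1*, *Syce2*, *Syce3* and *Sycp2* lay lower in every cKO library than in any control, and those of *Sycp1*, *Hormad1* and *Hormad2* higher. The 9 shares add up to the whole, so these are not separate results, and 7 of 9 stand beside the 39.5% of all genes given above. Dividing by the sum of the 9 genes cancels the replicate 2 swing that they share and adds it to other genes, so a higher count for the 9 genes is built in and nothing is read from it. *Syce1* made up 12.9% ± 0.67 in control and 11.0% ± 0.27 in cKO libraries, and *Hormad1* 11.1% ± 0.48 and 13.2% ± 0.49. Within the lateral element, *Sycp2* made up 13.7% ± 0.76 in control and 12.3% ± 0.48 in cKO libraries, and *Sycp3* had overlapping shares of 17.5% ± 0.21 and 18.2% ± 0.67. Within the central element, *Tex12* had overlapping shares of 7.15% ± 0.41 and 7.89% ± 0.44. The log2 ratio of *Syce2* to *Tex12* was 0.80, 0.89 and 0.64 in control and 0.52, 0.27 and 0.38 in cKO libraries, without overlap. That of *Syce1* to *Syce2* was 0.07 ± 0.022 in control and 0.09 ± 0.039 in cKO libraries, and ran from 0.05 to 0.13 over the 6 libraries.

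Of the 36 ratios between 2 of the 9 genes, 23 did not overlap between the genotypes, which is 63.9%, against 53.5% of all pairs of genes tested. All 20 ratios between *Sycp2*, *Syce1*, *Syce2* or *Syce3* and 1 of the other 5 genes were among them, with differences of 0.21 to 0.51 on the log2 scale. Of the 16 ratios inside either group, 3 did not overlap, those of *Sycp1* to *Sycp3*, *Sycp1* to *Tex12* and *Sycp3* to *Hormad1*. The shared replicate 2 swing cancels in these ratios too, so the count is not read against the background. This grouping was made after the ratios had been seen and is a description. The largest difference was that of *Sycp1* to *Syce3*, with log2 ratios of 0.57, 0.57 and 0.79 in control and 1.13, 1.15 and 1.18 in cKO libraries.

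Over the 6 libraries Pearson's r between 2 of the 9 genes ran from 0.067 to 0.991 with a median of 0.714, and none of the 36 values was negative. The points share libraries and their scaling. *Syce1* and *Syce2* had the highest value, 0.991. Many genes outside the set followed its members as closely, since between 62 and 256 of 12311 protein-coding genes had an r of at least 0.95 with a given member. The nearest were *Arid4b* for *Sycp1* (r = 0.997), *Ankib1* for *Sycp2* (0.995), *Eif2s2* for *Sycp3* (0.999), *Atox1* for *Syce1* (0.998), *Rpl31* for *Syce2* (0.998), *Eif2s1* for *Syce3* (0.999), *Pdlim5* for *Tex12* (0.991), *Ndufaf6* for *Hormad1* (0.991) and *Gm364* for *Hormad2* (0.998), each over 6 libraries.

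Of 32 other genes of synapsis, the chromosome axis and recombination, 31 were tested, and 3 were higher and 5 lower in the cKO. Both shares are below those of all genes tested, of which 11.8% were higher and 22.2% lower, so the calls below describe single genes and not the list. The median log2 fold change of the 31 was -0.10. *Spo11*, the transesterase that makes meiotic double-strand breaks, was measured at 22.4, 15.9 and 17.9 FPKM in the controls and at 10.5, 9.27 and 6.85 FPKM in cKO libraries, without overlap. Its log2 fold change was -1.01 with an SE of 0.18 (limma, adjusted p = 0.0050). *Hsf2bp*, whose product localises BRCA2 to recombination sites, fell by 0.70 on the log2 scale, and *Msh4*, a crossover factor, fell by 0.65 (limma, adjusted p = 0.0086 and 0.019). *Rec8*, the meiotic cohesin subunit on which the axis is built, had a log2 fold change of -0.56, and *Mei1*, needed for break formation, one of -0.43 (limma, adjusted p = 0.0089 and 0.017). The call of *Msh4* was lost with quantile normalisation, where its log2 fold change was -0.34 (limma, adjusted p = 0.14). It was also lost with the replicate block and without cKO replicate 1 or 3 (limma, adjusted p = 0.056, 0.064 and 0.066). The call of *Mei1* was lost without control replicate 1 or 3 or cKO replicate 1 or 3 (limma, adjusted p = 0.061, 0.063, 0.060 and 0.065). The replicate block ended it too (limma, adjusted p = 0.065).

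The genes that rose were also of mixed roles. *Tex11*, an X-linked crossover factor that binds SYCP2, was measured at 58.0, 49.7 and 56.6 FPKM in the controls and at 75.3, 90.0 and 75.1 FPKM in cKO libraries. Its log2 fold change was 0.54 with an SE of 0.10 (limma, adjusted p = 0.0065). *Rec114*, a break formation factor, had a log2 fold change of 0.41 and *Trip13*, which removes HORMADs, one of 0.28 (limma, adjusted p = 0.026 and 0.021). The call of *Rec114* was lost without control replicate 1 or 3 or cKO replicate 1 or 2 (limma, adjusted p = 0.085, 0.084, 0.057 and 0.067). That of *Trip13* was lost without control replicate 1 or 3 or cKO replicate 3 (limma, adjusted p = 0.068, 0.070 and 0.089). The replicate block ended the call of *Trip13* too (limma, adjusted p = 0.087). *Trip13* was measured at 19.5, 21.3 and 20.2 FPKM in the controls and at 24.2, 24.6 and 25.8 FPKM in cKO libraries, without overlap and without the replicate 2 pattern described above. *4930447C04Rik*, which encodes the central element protein SIX6OS1, was not called, at 49.4 ± 8.23 FPKM in the controls and 69.1 ± 20.1 FPKM in cKO libraries (limma, adjusted p = 0.15). *Sycp2l*, a relative of *Sycp2*, was under the filter, with at most 0.26 FPKM in any library. With both second replicates left out, 3 of these 31 genes were higher and 13 lower, against 11.1% and 22.8% of all genes. The libraries removed were the lowest control and the highest cKO library for 23 of the 31, so this count is a description too. There *Rec8* was no longer called (limma, adjusted p = 0.055).

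**Figure D5:**
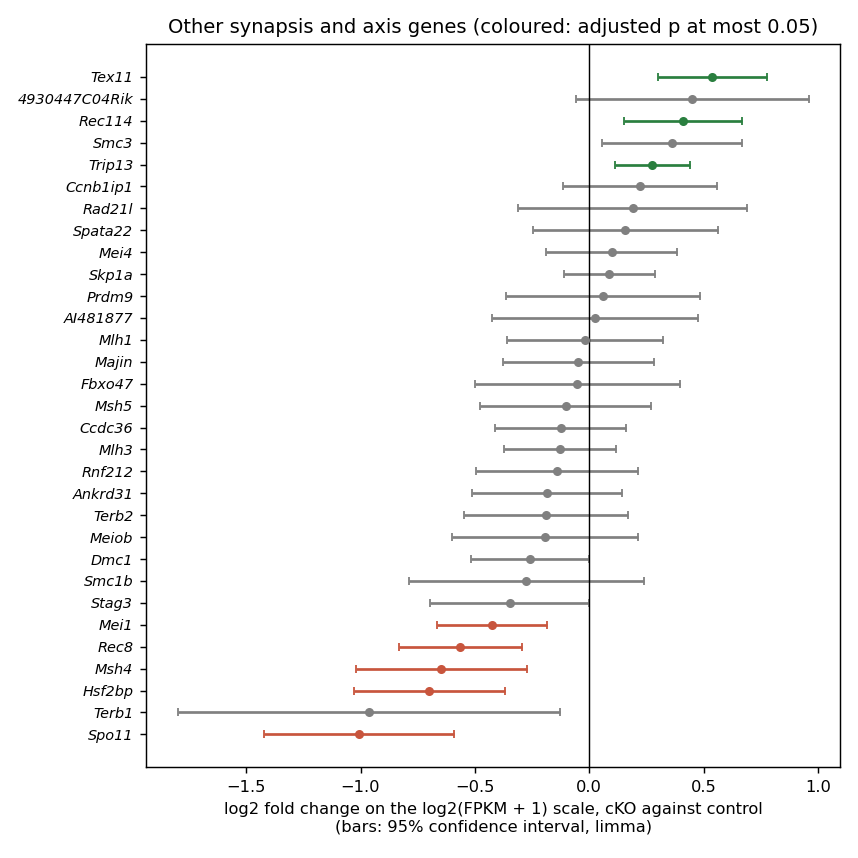
Log2 fold change (cKO minus control, log2(FPKM + 1) scale, x axis), of the 31 other synapsis, axis and recombination genes tested, with 95% confidence intervals from limma; coloured points are past the threshold. *Tex11*, *Rec114* and *Trip13* lie above 0, and *Mei1*, *Rec8*, *Msh4*, *Hsf2bp* and *Spo11* below.

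Markers of the stages that express these genes are given beside the result. Of 8 markers of meiotic initiation and early prophase none was higher and *Spo11* and *Mei1* were lower. These are the same calls as in the synapsis and axis list, which also holds *Prdm9* and *Dmc1*. The 8 markers had a summed level of 436 to 625 FPKM in the controls and 567 to 728 FPKM in cKO libraries. Of 8 markers of differentiating spermatogonia, 1 was lower (*Dmrtb1*) and none higher. Of 7 tested markers of undifferentiated spermatogonia, 1 was higher (*Ret*) and 1 lower (*Id4*). With 11.8% of all genes higher and 22.2% lower, counts this small are near the background. Of the 29 somatic markers 13 were tested and 1, the Sertoli cell gene *Rhox5*, was higher, with summed levels of 88.1 to 100 FPKM in the controls and 69.2 to 145 FPKM in cKO libraries. Among the markers of undifferentiated spermatogonia, *Zbtb16* was detected at 10.5 ± 2.82 FPKM in control and 14.99 ± 2.01 FPKM in cKO, *Id4* at 5.24 ± 0.25 and 1.55 ± 0.24 FPKM and *Gfra1* at 0.88 ± 0.11 and 1.36 ± 0.22 FPKM, while *Nanos2* was near 0 at 0.067 ± 0.060 and 0.058 ± 0.067 FPKM. *Ret* and *Rhox5* are named here after their values had been seen. Their part in the results on the 9 genes was not tested.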

How the data were processed

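RNA-seq of STRA8+ cells was analysed in 3 control and 3 *Srsf1* cKO libraries, grouped by genotype and title. The authors deposited 1 table of FPKM for all genes with gene coordinates and the gene length used. The submitters' processing notes name HISAT2 2.0.5 and mm10, and the counting tool is not given in the sources used here. The article supplied with the series describes other samples and was not used for the processing. FPKM multiplied by gene length and by a denominator found for each library gave whole fragments for 100% of values (tolerance 0.01), with denominators of 0.971 to 1.05 times the summed fragments, which gave the depths and member fragments quoted. Intervals from these fragments would cover counting error only and were not used.

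The test used log2(FPKM + 1) of genes whose mean across all libraries reached 1 FPKM, with limma 3.58.1 in R 4.3.3 (lmFit, eBayes with intensity trend, two-sided) and Benjamini-Hochberg adjustment over all 15451 genes, with a threshold of 0.05. Fold changes on this scale understate changes of low genes. Shares were computed within libraries from FPKM without a pseudocount, and ratios of 2 genes from log2(FPKM + 1). Gene models came from GENCODE M21, whose coordinates equal those of the table for the 9 genes, and promoters from RefSeq (GRCm38.p6). The tests were checked on simulated data. The members and lists were chosen with earlier results of these data known. Named genes were the 9 genes, *Srsf1*, *Stra8*, *Ddx4*, *Dazl*, the nearest gene by r for each member, the axis genes past the threshold, *4930447C04Rik*, *Sycp2l* and *Trip13*, and up to 4 genes of each marker list. Alternatives were a pseudocount of 0.1, no filter or a minimum mean of 5 FPKM, other scalings, no intensity trend, limma-voom on recovered fragments, a replicate block and leaving out libraries.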

Additional observations from a re-analysis of the deposited data

How the results depend on the processing

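*Srsf1* stayed lower and past the threshold under all 16 alternatives, with log2 fold changes of -3.50 to -3.03. The number of the 9 genes called was 1 in the test as designed and 0 with no filter, with no intensity trend and with the replicate block. It ranged from 0 to 3 when 1 library was left out and was 5 with both second replicates left out, an alternative chosen after seeing the data. *Syce2* kept its direction under all 16 alternatives and passed the threshold under 9, with adjusted p from 0.0072 to 0.127. The synapsis and axis list had 8 calls, between 5 and 11 when 1 library was left out, and 16 with both second replicates left out. No pairing of libraries by replicate number was seen. The deviations of same-numbered libraries correlated at -0.0014, -0.11 and 0.016, and 1 of the 6 libraries correlated best with its own number. This check would miss a pairing with small effects or effects on few genes. Under the replicate block 891 genes were higher and 2870 lower, against 1821 and 3437.

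Signs reversed only for genes that were not called in the test as designed. With both second replicates left out, *Sycp1* had a log2 fold change of -0.068, *Tex12* of -0.21, *Hormad1* of -0.095, *Hormad2* of -0.088 and *Stra8* of -0.022. *Sycp3* reached 0.014 with FPKM recomputed from fragments and 0.013 with limma-voom, and ranged from -0.19 to 0.055 when 1 library was left out. *Tex12* ranged from -0.094 to 0.16 and *Hormad2* from -0.010 to 0.17 in the same way. The causes were not tested. Quantile normalisation shifted the all-gene median to 0.21 on the log2 scale, with 5164 genes higher and 2527 lower, and gave 5 higher and 4 lower genes in the synapsis and axis list. *Trip13* and *Rec114* lost their call under 4 of 16 alternatives each, *Msh4* under 4, *Mei1* under 5, *Rec8* under 1, *Dazl* under 2 and *Ddx4* under 11, while *Spo11*, *Hsf2bp* and *Tex11* lost it under none of the 16. The replicate block was among these settings for *Trip13*, *Mei1*, *Msh4*, *Ddx4* and *Dazl*. Each value of the 9 genes rested on at least 675 fragments.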
